A study of Mus musculus with 12 samples.

Results

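The 8 genes described here set the fast transmitter identity of a neuron and the direction in which its chloride moves. They were taken by gene symbol from the 55418 genes counted in the brainstem of 12 mouse pups: *Slc17a6*, *Slc17a7* and *Slc17a8*, *Slc32a1*, *Gad1* and *Gad2*, and *Slc12a2* and *Slc12a5*. Each symbol matched 1 annotated gene, and all 8 passed the filter on low counts in every comparison.

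Excitatory neurons load glutamate into synaptic vesicles with a vesicular glutamate transporter, and VGLUT2, encoded by *Slc17a6*, is the usual form in the brainstem. VGLUT1 (*Slc17a7*) marks cortical neurons and the granule cells of the cerebellum and some hindbrain nuclei, and VGLUT3 (*Slc17a8*) marks small populations that include serotonergic cells. Inhibitory neurons make GABA with the glutamate decarboxylases GAD67 (*Gad1*) and GAD65 (*Gad2*), and VIAAT (*Slc32a1*) fills vesicles with GABA or glycine. NKCC1 (*Slc12a2*) carries chloride into cells, KCC2 (*Slc12a5*) carries it out of neurons, and the growing balance toward KCC2 in early postnatal life is what makes GABA and glycine hyperpolarizing.

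The pups were outbred CFW mice given 15 mg/kg morphine or saline under the skin, 2 times a day from P1 to P14, and the brainstem (medulla and pons) was taken at P15, about 16 h after the last injection. The labels name no transgene or engineered allele in any group. There were 3 saline males (numbered 1 to 3), 3 saline females (4 to 6), 3 morphine females (1 to 3) and 3 morphine males (4 to 6), with 1 library per mouse and 1 lane of 100 base single-end reads. Per the study's methods, the pups of a litter were split at random between saline and morphine. The dam of each pup is in no label used here, so litter was in no fit. Differences between litters therefore cannot be told apart from differences between pups.

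Libraries held 27850565 to 48097947 counts. The labels name the brainstem as tissue while the text on RNA extraction names spinal cord: the 8 brainstem markers of medulla and pons summed to 546.8 to 726.4 CPM (counts scaled to a common library size with TMM factors), whereas 7 posterior *Hox* genes of the spinal cord summed to 0.0297 to 0.584 CPM. The female-specific RNA *Xist* reached 379.9 CPM in the library labelled morphine male 6, against 0.398 to 2.71 CPM in the other 5 males and 547 to 970 CPM in the 6 females. The Y-linked genes *Ddx3y*, *Eif2s3y*, *Kdm5d* and *Uty* stood at 12.8, 19.0, 12.4 and 9.03 CPM in that library. These levels were 8.35% to 29.5% of the mean of the other 5 males, while *Ddx3y* was at most 0.729 CPM in the 6 females. The library thus held both male and female signal. It was kept under its label. Fold changes of some of the 8 genes, and the ratios, are also given with it left out.

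The libraries also differed along a trend with base composition that touches every result below. For each library a GC index was computed as the median log2 deviation from the 12-mouse mean of the 3759 tested genes with a transcript GC content of at least 55%, minus that of the 5193 genes at or below 45%. It was 0.96 in saline male 2, 0.76 in saline male 1 and 0.48 in the library labelled morphine male 6, and it fell to -0.55 in saline female 6 and -0.97 in saline male 3. The other 7 libraries lay between -0.25 and 0.06. The index therefore spanned 1.93 log2 units within the 3 saline males alone, and no label separates those mice. Whether the trend arose in the tissue, the RNA or the library preparation was not tested.

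The 8 genes stand at both ends of that range. The transcript GC content was 61.9% for *Slc32a1*, higher than in 98.4% of tested genes, 58.3% for *Slc12a5* and 56.6% for *Slc17a7*. It was 47.3% for *Gad1*, 44.2% for *Slc12a2*, 44.1% for *Gad2*, 44.0% for *Slc17a8* and 42.9% for *Slc17a6*. To let the contrast be seen, 90 bases from the middle of the longest coding exon are shown for 2 genes of each kind, read from the GENCODE transcripts of build GRCm38 on the plus strand, with G and C in capitals. The stretches hold 49 G or C bases in *Slc32a1* (exon 2 of 2, chr2:158614364-158614453), 49 in *Slc12a5* (exon 7 of 26, chr2:164979355-164979444), 38 in *Slc17a6* (exon 12 of 12, chr7:51669146-51669235) and 34 in *Gad2* (exon 4 of 16, chr2:22624870-22624959).
Slc32a1: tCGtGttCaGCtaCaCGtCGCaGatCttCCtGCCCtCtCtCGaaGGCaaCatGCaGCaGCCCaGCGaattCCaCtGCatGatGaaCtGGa
Slc12a5: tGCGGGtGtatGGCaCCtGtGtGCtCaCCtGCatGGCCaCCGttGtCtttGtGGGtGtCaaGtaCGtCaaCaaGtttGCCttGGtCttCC
Slc17a6: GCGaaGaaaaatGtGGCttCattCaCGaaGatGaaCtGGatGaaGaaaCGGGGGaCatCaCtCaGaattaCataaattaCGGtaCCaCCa
Gad2: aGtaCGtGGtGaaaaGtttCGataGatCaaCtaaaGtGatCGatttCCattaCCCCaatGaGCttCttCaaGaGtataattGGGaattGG

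Across whole coding sequences the GC content was 61.5% for *Slc32a1*, 57.0% for *Slc12a5*, 49.2% for *Gad2* and 49.0% for *Slc17a6*. *Slc32a1*, *Gad1*, *Gad2* and *Slc12a5* lie on mouse chromosome 2 (158610767 to 158615748, 70553072 to 70602014, 22622205 to 22693874 and 164960802 to 164999731, all on the plus strand). *Slc17a6* and *Slc17a7* lie on chromosome 7 (51622006 to 51671119 and 45163949 to 45176142, plus strand), *Slc17a8* on chromosome 10 (89574020 to 89621253, minus strand) and *Slc12a2* on chromosome 18.

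*Slc17a6*, the vesicular glutamate transporter of most brainstem excitatory neurons, did not separate the treatment groups. Its level was 318, 276 and 474 CPM in saline males 1 to 3, 362, 340 and 382 CPM in saline females, 367, 323 and 367 CPM in morphine females, and 356, 352 and 291 CPM in morphine males. The highest and lowest of the 12 values both came from saline males, so the saline range of 276 to 474 CPM enclosed the whole morphine range of 291 to 367 CPM.

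*Slc17a7* ran the other way. It stood at 131, 137 and 56.8 CPM in saline males, 101, 61.2 and 57.5 CPM in saline females, 75.7, 60.7 and 93.7 CPM in morphine females, and 103, 79.2 and 117 CPM in morphine males. Saline male 3, highest for *Slc17a6*, was the lowest of all 12 mice for *Slc17a7*. Markers of cerebellar granule cells, which also express *Slc17a7*, were present in all libraries: 8 of 8 passed the filter, and they summed to 230 to 275 CPM in saline mice and 247 to 327 CPM in morphine mice. *Rims3* (mean 96.3 CPM) and *Zic1* (mean 78.1 CPM) made the largest parts of that sum. Over the 12 mice *Gabra6* ran from 0.79 to 19.1 CPM and *Cbln3* from 3.37 to 21.7 CPM. *Rims3* ran from 67.5 to 130 CPM and *Zic1* from 59.7 to 98.3 CPM, so the sum hides wider changes of single markers. The part of these cells in the level of *Slc17a7* was not tested. In bulk tissue, fewer cells of a type and less RNA per cell cannot be told apart.

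*Slc17a8* was rare, at 4.16 to 9.16 CPM in saline mice (median 6.56) and 5.39 to 10.3 CPM in morphine mice (median 7.95). Its lowest value was in saline male 2 and its highest in the library labelled morphine male 6. Per kilobase of exon, the vesicular glutamate transporter signal of a library was 65.9% to 87.6% *Slc17a6* (median 79.0%), 10.5% to 32.9% *Slc17a7* (median 19.0%) and 1.14% to 2.80% *Slc17a8* (median 1.79%).

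*Slc32a1*, the vesicular transporter of GABA and glycine, varied most of the 8. Its level was 99.3, 107 and 30.5 CPM in saline males, 54.7, 43.7 and 36.2 CPM in saline females, 50.4, 47.1 and 57.1 CPM in morphine females, and 50.6, 44.6 and 64.4 CPM in morphine males. Saline male 2 was 3.51-fold above saline male 3, in mice of the same sex and treatment, and the 6 morphine mice lay between them within a range of 44.6 to 64.4 CPM.

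The decarboxylases of the same inhibitory neurons were far steadier. *Gad1* was 180, 176 and 220 CPM in saline males, 206 to 212 CPM in saline females, 184, 199 and 236 CPM in morphine females, and 204 to 213 CPM in morphine males. *Gad2* was 211, 185 and 308 CPM in saline males, 232 to 251 CPM in saline females, 238 to 259 CPM in morphine females, and 254, 259 and 208 CPM in morphine males. Both were lowest in saline male 2, the mouse with the highest level of *Slc32a1*, and saline male 3, the mouse with the lowest, was highest for *Gad2*.

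For the chloride cotransporters the same mice again marked the ends. *Slc12a5* was 404, 425 and 195 CPM in saline males, 279, 243 and 226 CPM in saline females, 262, 252 and 270 CPM in morphine females, and 303, 267 and 364 CPM in morphine males. *Slc12a2* was 347, 335 and 484 CPM in saline males, 375, 433 and 479 CPM in saline females, 424, 430 and 349 CPM in morphine females, and 369, 431 and 321 CPM in morphine males. The 3 libraries highest for *Slc12a5*, those of saline males 1 and 2 and the library labelled morphine male 6, were the 3 lowest for *Slc12a2*.

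NKCC1 is abundant in choroid plexus, whose 7 markers all passed the filter and summed to between 10.4 CPM in saline female 4 and 850 CPM in morphine male 5. *Slc12a2* was 375 CPM in the former and 431 CPM in the latter, so its 1.51-fold range over the 12 mice was much narrower than that of the markers. Oligodendrocyte markers, 6 of 6 tested, summed to 38072 to 58657 CPM in saline and 32820 to 46113 CPM in morphine mice, with the 2 highest sums in saline males 1 and 2. The part of these cells in the members' levels was not tested.

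**Figure D1:**
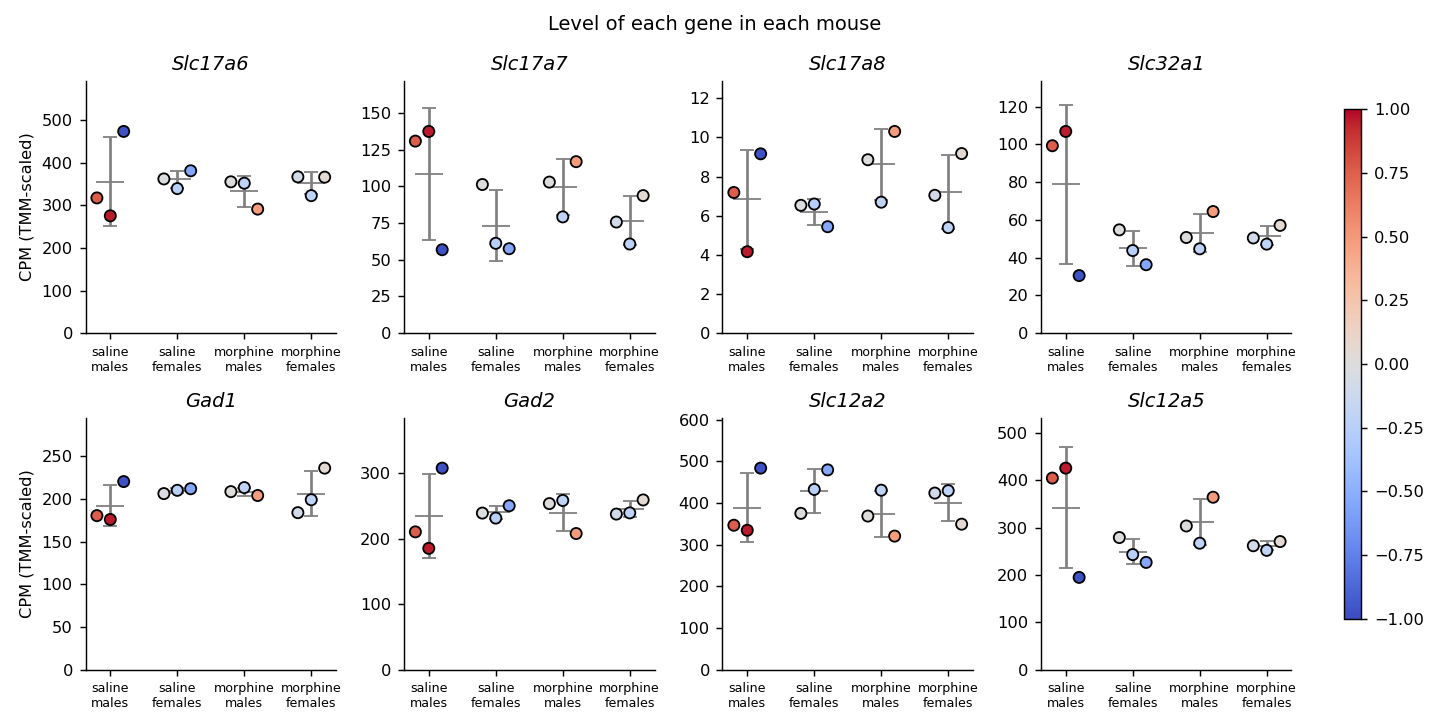
CPM (TMM-scaled) of each of the 8 genes in each of the 12 mice, by treatment and sex, with the mean and SD of each group of 3 as a bar and each point coloured by the GC index of its library. In saline males *Slc32a1* runs from 30.5 to 107 CPM with the index, while *Slc17a6* and *Slc12a2* are highest where the index is lowest.

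Levels were compared between genes only per kilobase of exon. In the 6 saline mice the medians of CPM per kilobase were 65.0 for *Slc17a6*, 40.1 for *Gad2*, 37.0 for *Slc12a2*, 35.0 for *Slc12a5*, 27.2 for *Gad1*, 17.6 for *Slc32a1*, 15.1 for *Slc17a7* and 1.39 for *Slc17a8*. Neighbours in this order overlapped in range except for *Slc17a7* above *Slc17a8*. *Slc17a6* was above *Gad2* in 6 of 6 mice and *Slc32a1* above *Slc17a7* in 6 of 6, while *Slc12a2* was above *Slc12a5* in only 3 of 6. The morphine mice gave the same order, with medians of 65.6 for *Slc17a6* and 18.1 for *Slc32a1*. With the longest transcript in place of all exons, *Gad1* rose to 57.8 in saline mice, above *Gad2*, and *Slc17a7* at 26.4 stood above *Slc32a1* at 17.6, so both orders rest on the length used. The glycine transporter *Slc6a5*, which marks glycinergic neurons, stood at 66.6 to 88.5 CPM per kilobase, above *Slc32a1* at 10.9 to 38.2 in all 12 mice.

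The 3 GC-rich genes and the rare *Slc17a8* spread more among the mice than the median gene, and the other 4 less. The SD of log2 CPM over the 12 mice was 0.53 for *Slc32a1*, 0.47 for *Slc17a7*, 0.38 for *Slc17a8* and 0.34 for *Slc12a5*, against a median of 0.27 over the 18608 genes tested, and 0.20 for *Slc12a2* and *Slc17a6*, 0.19 for *Gad2* and 0.12 for *Gad1*. Pearson r of log2 CPM with the GC index, given as a description because the libraries that define the index are the same 12, was 0.98 for *Slc32a1* and *Slc12a5* and 0.91 for *Slc17a7*. It was -0.90 for *Gad2*, -0.89 for *Slc12a2*, -0.87 for *Slc17a6*, -0.65 for *Gad1* and -0.20 for *Slc17a8*. Genes of like composition behaved alike across the table: the median r was 0.94 for the 437 genes around 60.8% GC and -0.70 for the 1603 genes around 43.1% GC.

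**Figure D2:**
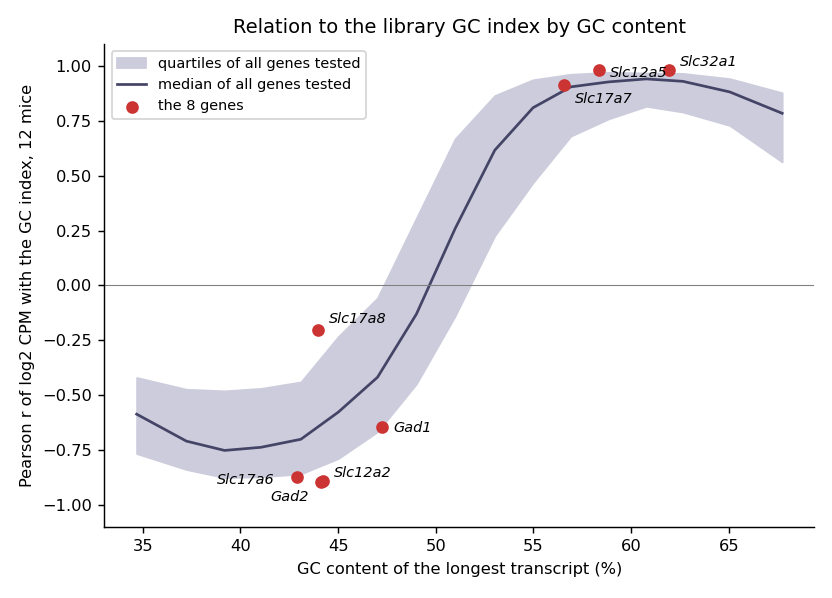
Pearson r of log2 CPM with the GC index of the library over 12 mice (vertical axis) against the GC content of the longest transcript in percent (horizontal axis), with the median and quartiles of all genes tested and the 8 genes as points. The 3 GC-rich genes lie between 0.91 and 0.98 beside their bin medians, and of the 5 others *Slc17a8* at -0.20 lies farthest from its bin.

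The index was computed for each library, and the origin of the trend was not tested. Each library's smooth (loess) dependence of log2 CPM on exon length and GC content was then used as an offset. After offsets the index of all 12 libraries lay between -0.0945 and 0.0535, which follows from fitting the offsets to the same libraries. Offsets would also remove a difference between the tissues that runs along GC content or exon length. Standard errors and confidence intervals with offsets treat the offsets as known. The SD of *Slc32a1* fell from 0.53 to 0.067, at the 2.52 percentile of all genes after offsets, and its levels in the 12 mice ran from 50.4 to 57.6 CPM. *Slc12a5* went from 0.34 to 0.075, *Slc12a2* from 0.20 to 0.089, *Gad2* from 0.19 to 0.11, *Slc17a6* from 0.20 to 0.12 and *Slc17a7* from 0.47 to 0.23. *Gad1* changed little (0.12 to 0.11), and *Slc17a8* did not narrow (0.38 to 0.39). The spread that remained was thus unequal: *Slc17a7* ran from 66.1 to 104 CPM and *Slc17a8* from 4.77 to 11.3 CPM after offsets.

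**Figure D3:**
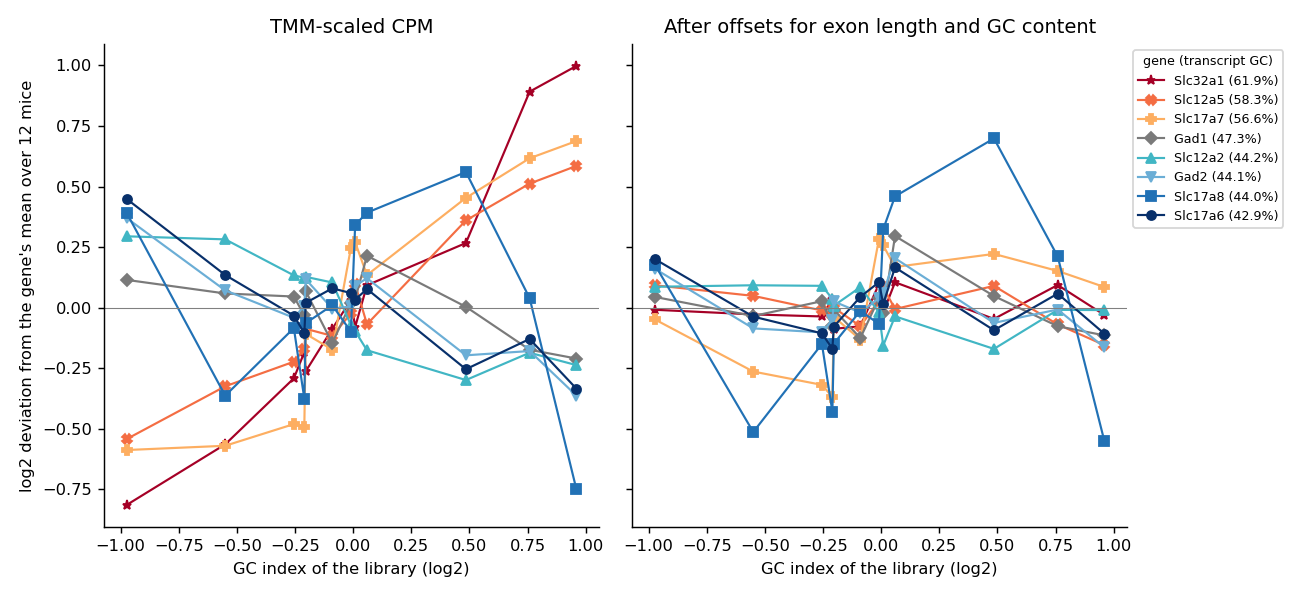
Log2 deviation of each gene from its own mean over 12 mice (vertical axis) against the GC index of the library (horizontal axis), as TMM-scaled CPM (left) and after offsets for exon length and GC content (right), with 1 line per gene. On the left *Slc32a1*, *Slc12a5* and *Slc17a7* climb and most of the others descend, and on the right the farthest point is *Slc17a8* at 0.69 in the library labelled morphine male 6 while *Slc32a1* stays near 0.

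The first question of the design was whether repeated morphine and withdrawal changed gene expression with both sexes combined. None of the 8 genes was called at the study's thresholds, an unadjusted p under 0.05 and an absolute Log2FC over 0.26, and 1.19% of the 18608 genes tested were. The Log2FC of morphine against saline was -0.06 ± 0.12 (SE, 6 mice a group) for *Slc17a6*, -0.02 ± 0.21 for *Slc17a7*, -0.17 ± 0.26 for *Slc32a1*, 0.06 ± 0.08 for *Gad1*, 0.04 ± 0.11 for *Gad2*, -0.07 ± 0.12 for *Slc12a2* and -0.02 ± 0.16 for *Slc12a5*. The largest was *Slc17a8* at 0.29 ± 0.20 (edgeR quasi-likelihood test, adjusted p = 1.00). The levels of the treatment groups overlapped for all 8, and they did not overlap for 0.0430% of genes tested.

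No gene of the 8 reached an unadjusted p of 0.05, and DESeq2's Wald test called 0 of the 8 as well. For *Slc32a1* the 95% confidence interval of the Log2FC was -0.73 to 0.39, and with offsets it was -0.14 to 0.08 around an estimate of -0.03. That of *Slc12a5* went from -0.36 to 0.32 without offsets to -0.10 to 0.14 with them, and that of *Slc12a2* from -0.32 to 0.18 to -0.19 to 0.04. For *Slc17a8* it stayed wide (-0.14 to 0.71, and -0.08 to 0.71 with offsets). Signs of *Slc17a7* and *Slc12a5* flipped between the 2 fits, at 0.03 and 0.02 with offsets. Leaving out the library labelled morphine male 6 gave -0.19 for *Slc32a1* and 0.21 for *Slc17a8*, with none of the 8 called. Without saline males 1 and 2, a fit added after the data were seen, *Slc32a1* was called at 0.39 (adjusted p = 0.359) in a fit that called 11.7% of all genes.

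In females, where the index ran only from -0.55 to 0.06, none of the 8 was called, against 1.81% of 18109 genes tested. The Log2FC lay between -0.11 ± 0.12 for *Slc12a2* and 0.21 ± 0.20 for *Slc17a8*, with *Slc32a1* at 0.20 ± 0.14 (SE, 3 mice a group, edgeR quasi-likelihood test, adjusted p = 1.00). None had groups that did not overlap, a pattern shown by 5.65% of genes. With offsets *Slc32a1* was at 0.01 ± 0.09. Leaving out saline female 4, whose index of -0.01 is the highest of the saline females, brought *Slc32a1* to 0.35 (adjusted p = 0.586) and *Slc17a7* to 0.35 (adjusted p = 0.616), both then called with 2 saline females left, and 7.95% of genes were called in that fit.

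In males none of the 8 was called either, against 2.99% of 18166 genes tested, and none had groups that did not overlap, against 9.10% of genes. The estimates were -0.57 ± 0.43 for *Slc32a1* (edgeR quasi-likelihood test, adjusted p = 1.00), 0.33 ± 0.33 for *Slc17a8*, -0.13 ± 0.29 for *Slc12a5*, -0.12 ± 0.33 for *Slc17a7*, -0.11 ± 0.23 for *Slc17a6*, 0.11 ± 0.14 for *Gad1*, -0.07 ± 0.20 for *Slc12a2* and 0.02 ± 0.22 for *Gad2*. These standard errors were larger than those in females for all 8, and with offsets that of *Slc32a1* shrank to 0.071 around -0.07.

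The male comparison turned on which saline males were in it. Without saline male 3, the library of lowest index, 5 of the 8 were called: *Slc32a1* at -0.92 (adjusted p = 0.0149), *Slc17a7* at -0.39, *Slc12a5* at -0.38, *Slc17a8* at 0.65 and *Gad2* at 0.31, in a fit that called 28.6% of all genes. Without saline males 1 and 2, the libraries of highest index, 6 were called with the GC-rich genes now positive: *Slc17a7* at 0.78, *Slc32a1* at 0.77 (adjusted p = 0.0760) and *Slc12a5* at 0.65, against *Slc17a6* at -0.54, *Slc12a2* at -0.41 and *Gad2* at -0.39, with 31.1% of all genes called. Its lone saline male is assumed to vary like the morphine males. The 4 genes *Slc32a1*, *Slc17a7*, *Slc12a5* and *Gad2* were called in both fits with opposite signs. Leaving out the library labelled morphine male 6 called none, with *Slc32a1* at -0.74.

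The treatment by sex interaction asked whether the change in males differed from that in females. It called none of the 8, against 2.94% of 19027 genes tested. The difference of changes, male minus female, was -0.75 ± 0.49 for *Slc32a1* (edgeR quasi-likelihood test, adjusted p = 0.985), with a 95% confidence interval of -1.81 to 0.32, and -0.08 ± 0.11 with offsets. For *Slc12a5* it was -0.18 ± 0.32, and 0.16 ± 0.11 with offsets. With the library labelled morphine male 6 left out, none was called, with *Slc32a1* at -0.91 and *Slc12a5* at -0.31. With no filter on low counts *Slc32a1* was called at -0.77 (adjusted p = 1.00), in a fit that called 4.44% of all genes. Without saline male 3, *Slc32a1* at -1.15 (adjusted p = 0.0106) and *Slc12a5* at -0.48 were called, with 24.1% of all genes. Without saline males 1 and 2, *Slc12a5* at 0.61, *Slc17a6* at -0.47 and *Gad2* at -0.39 were called, with 17.8% of all genes.

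Between the sexes, 1 of the 8 was called, against 3.94% of the 18608 genes tested. *Slc12a5* was lower in females by a Log2FC of -0.34 ± 0.16 (edgeR quasi-likelihood test, adjusted p = 0.734), and *Slc17a7* at -0.46 ± 0.21 fell just short of the p threshold (adjusted p = 0.734). Females had 226 to 279 CPM of *Slc12a5*, a range that lies inside the male range of 195 to 425 CPM. The sexes overlapped for all 8 genes, and they did not overlap for 0.129% of genes. With offsets *Slc12a5* was at -0.02 ± 0.06 and *Slc17a7* at -0.19 ± 0.11, and neither was called. Without saline males 1 and 2 *Slc12a5* was at -0.06 and was not called, and with the library labelled morphine male 6 left out its value was -0.30 (adjusted p = 0.967). When the 12 mice were dropped in turn, *Slc12a5* lost the call in 9 fits and kept it only without saline male 3, morphine female 3 or morphine male 5. *Slc17a7* was called in 4 of them, the same 3 and the fit without saline female 4. Without saline male 3 it was at -0.48 (adjusted p = 0.0493), and *Slc17a7* at -0.61 and *Slc32a1* at -0.59 were called beside it, with 20.9% of all genes.

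**Figure D4:**
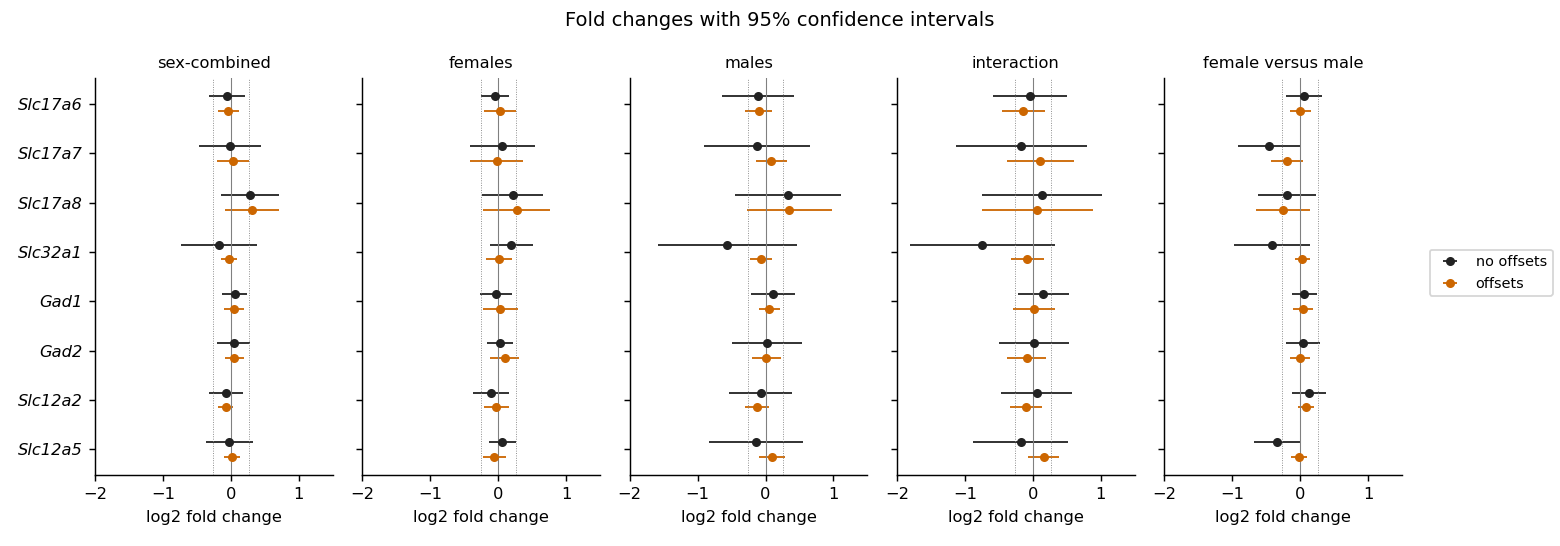
Log2 fold change of each of the 8 genes in 5 comparisons (horizontal axis) with 95% confidence intervals from edgeR's quasi-likelihood fit, without offsets (black) and with offsets for exon length and GC content (orange); dotted lines mark the threshold of 0.26 on either side. Intervals of *Slc32a1* and *Slc12a5* narrow with offsets in each panel, while those of *Slc17a8* stay wide.

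Ratios of 2 genes within a library need no scaling between libraries. Those below compare RNA counts in bulk tissue, and neither the chloride balance nor the transmitter identity of neurons was measured. Over the 12 mice, Pearson r with the GC index was 0.98 for *Slc12a5* over *Slc12a2* and -0.99 for *Slc17a6* over *Slc32a1*. The ratio of *Slc12a5* to *Slc12a2* counts was 1.17, 1.27 and 0.403 in saline males, 0.743, 0.562 and 0.472 in saline females, 0.617, 0.586 and 0.774 in morphine females, and 0.823, 0.620 and 1.14 in morphine males. The lowest and the highest belonged to saline males, a 3.16-fold range. On the log2 scale the mean was -0.51 ± 0.69 in saline and -0.44 ± 0.36 in morphine mice (SD, 6 mice each), a difference of 0.08 that is smaller than either SD. That difference was -0.05 with the library labelled morphine male 6 left out and 0.48 without saline males 1 and 2, so its sign and size rest on which mice are in it. After offsets the range over 12 mice was 1.34-fold, with means of -0.53 ± 0.07 in saline and -0.43 ± 0.17 in morphine mice.

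The ratio of *Slc17a6* to *Slc32a1* counts spanned 6.04-fold, from 2.58 in saline male 2 to 15.6 in saline male 3. Its log2 mean was 2.68 ± 1.00 in saline and 2.72 ± 0.28 in morphine mice, a difference of 0.03 that became 0.14 with the library labelled morphine male 6 left out and -0.54 without saline males 1 and 2. After offsets it spanned 1.33-fold, with means of 2.70 ± 0.11 and 2.70 ± 0.11. Unlike these, *Gad1* over *Gad2*, a pair closer in GC content, spanned 1.37-fold before and 1.18-fold after offsets, and its difference of 0.0025 became -0.04 and 0.04 with the same mice left out. *Slc17a7* over *Slc17a6* spanned 4.16-fold before and 1.48-fold after, and with offsets its r with the index was still 0.73. Its difference between morphine and saline mice was 0.08, and it was -0.06 with the library labelled morphine male 6 left out and 0.54 without saline males 1 and 2.

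**Figure D5:**
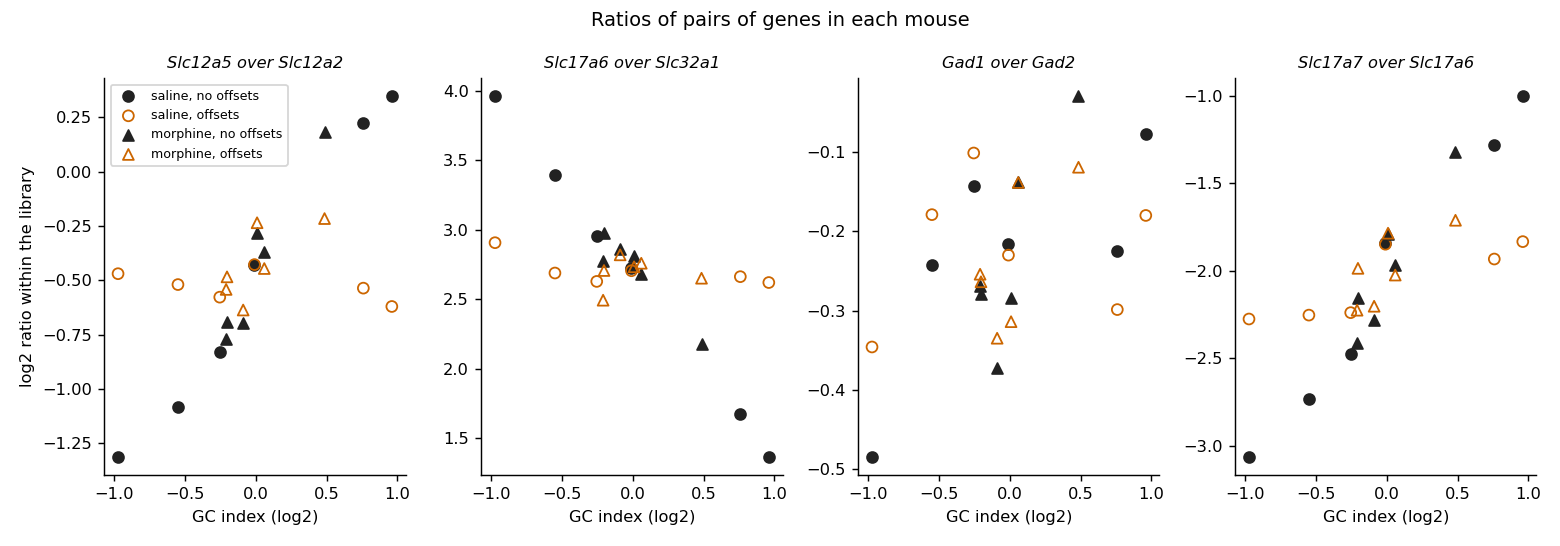
Log2 ratio of counts of 4 pairs of genes within each library (vertical axis) against the GC index of the library (horizontal axis), for saline (circles) and morphine (triangles) mice, without offsets (filled) and with offsets (open). *Slc12a5* over *Slc12a2* climbs and *Slc17a6* over *Slc32a1* descends with the index without offsets, and both flatten to ranges of 1.34-fold and 1.33-fold with them.

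Among genes that act in the same or in opposing neurons, 7 pairs were tested over 12 mice with 2-sided permutation tests of 100000 resamples, adjusted over the 7. The tests take no account of the GC index, with which r was 0.98 for *Slc32a1* and -0.90 for *Gad2*. A small p therefore cannot tell a relation of 2 genes from the trend that each follows with the index. *Gad1* and *Gad2* rose and fell together (Pearson r = 0.75, adjusted permutation p = 0.00908; Spearman rho = 0.84, adjusted permutation p = 0.00378). Both correlated negatively with *Slc32a1*, their partner in the same cells: r was -0.68 for *Gad1* (adjusted permutation p = 0.0189; rho = -0.61, adjusted permutation p = 0.0460) and -0.86 for *Gad2* (adjusted permutation p = 0.000945; rho = -0.61, adjusted permutation p = 0.0460). Without the 2 mice farthest from the median of the first gene, r was 0.50 for *Gad1* with *Gad2*, -0.18 for *Gad1* with *Slc32a1* and -0.67 for *Gad2* with *Slc32a1*, so the second relation rests on saline males 1 and 2.

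*Slc32a1* and *Slc6a5* gave r = -0.65 (adjusted permutation p = 0.0195; rho = -0.59, adjusted permutation p = 0.0460), which fell to -0.30 without saline males 1 and 2. *Slc17a6* and *Slc17a7* gave r = -0.66 (adjusted permutation p = 0.0189; rho = -0.70, adjusted permutation p = 0.0243) and -0.42 without saline males 2 and 3. *Slc17a6* and *Slc12a5* gave r = -0.85 (adjusted permutation p = 0.00114; rho = -0.71, adjusted permutation p = 0.0243) and -0.68 without the same mice. The pair of chloride cotransporters gave the most negative value of the 7, r = -0.88 (adjusted permutation p = 0.000210; rho = -0.94, adjusted permutation p = 0.000280), and -0.83 without saline male 3 and the library labelled morphine male 6.

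With offsets 5 of the 7 relations changed sign. With the group means subtracted, r ranged from -0.90 to 0.77 over the 7 pairs with all signs kept. With offsets, *Gad1* and *Gad2* stayed at 0.69, whereas *Gad1* with *Slc32a1* went from -0.68 to 0.45, *Gad2* with *Slc32a1* from -0.86 to 0.43, *Slc32a1* with *Slc6a5* from -0.65 to 0.25, *Slc17a6* with *Slc17a7* from -0.66 to 0.45 and *Slc17a6* with *Slc12a5* from -0.85 to 0.28. *Slc12a2* with *Slc12a5* kept its sign at -0.31. Outside the 7 pairs *Slc12a2* was more closely opposed to *Slc17a7*, at -0.93 without and -0.77 with offsets, a value given with no test. Because the offsets were chosen with the trend known, the values after offsets are given as descriptions with no test.

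The genes whose log2 CPM followed each member most closely over the 12 mice were sought among 15048 genes with a mean of at least 1 CPM, with the GC content of each beside it. *Ppfia3* (r = 0.998, 60.9% GC) and *Syt3* (r = 0.997, 59.2%) were nearest to *Slc32a1*, and *Ndrg4* (r = 0.99, 54.0%) and *Trappc12* (r = 0.98, 50.5%) to *Slc17a7*. *Sugt1* (r = 0.98, 41.4%) and *Zc2hc1a* (r = 0.98, 38.5%) were nearest to *Slc17a6*, *Epha5* (r = 0.99, 40.1%) and *Pgr15l* (r = 0.97, 40.1%) to *Gad2*, and *Erbin* (r = 0.99, 39.6%) and *Ap5m1* (r = 0.98, 39.5%) to *Slc12a2*. For *Gad1* they were *9130401M01Rik* (r = 0.94, 51.7%) and *Clgn* (r = 0.94, 44.3%), and for *Slc17a8* they were *Popdc3* (r = 0.88, 50.3%) and *Zcchc12* (r = 0.81, 49.1%). After offsets none of these genes remained among the 2 nearest, where *Clybl* (r = 0.89, 46.9%) and *Ubxn4* (r = 0.89, 45.9%) took the place beside *Slc32a1*. For *Slc12a5* the 2 nearest after offsets were *Msc* (r = 0.94, 58.2%) and *Slc6a17* (r = 0.93, 56.1%).

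Around the members, 9 lists of 72 genes covered glutamate supply and uptake, GABA uptake and breakdown, other cation-chloride cotransporters, their kinases and partners, other chloride routes, glycine co-transmission, vesicle acidification, and transcription factors of inhibitory and of excitatory neurons. Of these, 69 were tested. With both sexes combined 0 of 69 were called at an unadjusted p under 0.05 and the same fold threshold, against 1.19% of all genes. The median Log2FC was -0.03, against -0.02 over all genes. The 7 vesicle acidification genes, the 4 of glycine co-transmission and the 10 kinases and partners were all tested, with median Log2FC of -0.05, -0.05 and -0.03.

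In females 2 of 69 were called, against 1.81% of all genes, both GABA carriers found in meninges and other non-neuronal cells and both lower with morphine. *Slc6a13* (GAT2) was 10.9, 10.5 and 15.7 CPM in saline females and 7.78, 9.51 and 4.88 CPM in morphine females, with a Log2FC of -0.75 ± 0.25 (edgeR quasi-likelihood test, adjusted p = 1.00). *Slc6a12* (BGT1) was 2.07, 1.85 and 3.06 CPM in saline females and 1.199, 1.67 and 1.61 CPM in morphine females, with a Log2FC of -0.65 ± 0.28 (edgeR quasi-likelihood test, adjusted p = 1.00). For both genes the 3 saline females lay above the 3 morphine females, and the groups did not overlap for 5.65% of all genes tested. Both stayed called with offsets, at -0.81 and -0.69. The 5 markers of meningeal fibroblasts, a list that holds *Slc6a13* itself, summed to 112 to 158 CPM in the saline females and 68.8 to 123 CPM in the morphine females, and their part in the fall of the 2 carriers was not tested.

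In males 0 of 69 were called, against 2.99% of all genes. The interaction called 4 of 69, against 2.94% of all genes, with *Slc6a12* at 1.13 ± 0.41 (edgeR quasi-likelihood test, adjusted p = 0.985), *Slc6a13* at 0.84 ± 0.38, the sodium-driven chloride and bicarbonate exchanger *Slc4a8* at 0.33 ± 0.14 and the proton pump subunit *Atp6v0c* at -1.85 ± 0.71. *Atp6v0c* stood at 68.9 and 93.3 CPM in saline males 1 and 2 and at 12.2 to 26.4 CPM in the other 10 mice. The count table lists 2 pseudogenes named after it, so its reads may be shared, and its value is uncertain. With offsets 3 of 69 were called in females, 4 in males and 9 in the interaction, where 1.70%, 6.80% and 6.04% of all genes were called.

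Between the sexes 8 of 69 list genes were called, 7 of them lower in females, against 3.94% of all genes, of which 567 of 733 were lower in females. The 7 were *Slc6a13* at -0.49, the cotransporter family member *Slc12a9* at -0.80, the kinase *Wnk2* at -0.57, the chloride channel *Clcn2* at -0.54, the anion exchanger *Slc4a3* at -0.61 and the transcription factors *Pax2* at -0.57 and *Barhl1* at -0.61. The transcription factor *Pou4f1* was higher, at 0.30. GC content was at least 54.7% for each of the 7 and 49.8% for *Pou4f1*. With offsets 2 of 69 were called, against 2.77% of all genes: *Slc4a3* at -0.32 and *Pou4f1* at 0.31.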

How the data were processed

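Poly-A RNA-seq of brainstem from 12 mice was analysed, 1 library per mouse. The deposited values are raw counts per gene: per the labels and the study's methods, the authors trimmed reads with Trimmomatic, aligned them with STAR to mm10 and counted exon reads with featureCounts of Subread. The strand setting, the tool versions and the dam of each pup are not given in the sources used here. Totals ran from 27850565 to 48097947 counts (median 33214511).

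Counts were filtered by filterByExpr, scaled by TMM and tested with edgeR 4.0.16 quasi-likelihood fits in R 4.3.3, with sex or treatment as covariate where both were combined. DESeq2 1.42.0 was an alternative. Calls needed an unadjusted p below 0.05 with a log2 fold change beyond 0.26 in either direction, and Benjamini-Hochberg values stand beside them. Log2 CPM used a prior count of 2. Offsets were loess fits (span 0.5) of each library on exon length and GC content of GENCODE transcripts (GRCm38, matched by gene symbol). The 115 genes whose symbol stands for more than 1 gene were given no length or GC content. Scripts were tested on simulated data.

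The 8 genes, and the gene and marker lists, were chosen with earlier results of these data known. Named besides the 8 were list genes called in a comparison and, for each of the 8, the 2 genes of highest Pearson r. For *Slc12a5* this result without offsets is not reported here. Other settings were total scaling, no or a stricter filter (10 counts), no covariate, a replicate block and each mouse left out. Nothing says that replicates came from separate litters, so p-values measure the spread between these samples.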

Additional observations from a re-analysis of the deposited data

Results flagged for a closer look

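Of 24 groups of 6 mice tested for a sample far from the others, 1 passed Dixon's critical value of 0.625, about as many as chance flags at 1 in 20. It was the log2 ratio of *Slc17a6* over *Slc32a1* counts in morphine mice, where the library labelled morphine male 6 stood at 2.18 and the other 5 at 2.68 to 2.98. Its GC index was 0.48, against -0.21 to 0.06 in those 5, and after offsets for exon length and GC content its ratio was 2.65, inside the morphine range of 2.49 to 2.82. The part of the index in this value was not tested.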

How the results depend on the processing

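Over the settings that kept all 12 mice, 278 of 312 fold changes of the 8 genes kept their sign and their side of the threshold, 24 changed sign, 8 passed the threshold newly and 2 lost it. When 1 mouse was left out, 305 of 384 kept both, 56 changed sign, 14 passed newly and 9 lost the threshold. Without saline males 1 and 2, a choice made after the data were seen, 6 of 32 kept both. The cause of these changes was not tested. Fits that leave 1 saline male assume that it varies like the other mice. The loess offsets for levels, ratios and correlations were also added after the data were seen.

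With offsets for exon length and GC content, the log2 fold change with both sexes combined was 0.033 for *Slc17a7* and 0.020 for *Slc12a5*. In females it was 0.028 for *Slc17a6*, -0.020 for *Slc17a7*, 0.032 for *Gad1* and -0.057 for *Slc12a5*, and in males 0.087 for *Slc17a7* and 0.097 for *Slc12a5*. The interaction was 0.11 for *Slc17a7*, -0.093 for *Gad2*, -0.10 for *Slc12a2* and 0.16 for *Slc12a5*. Female against male was 0.034 for *Slc32a1* and -0.0054 for *Gad2*, with 0 of the 8 called, against 2.77% of all genes. Pearson r became 0.45 for *Gad1* with *Slc32a1*, 0.43 for *Gad2* with *Slc32a1*, 0.25 for *Slc32a1* with *Slc6a5*, 0.45 for *Slc17a6* with *Slc17a7*, 0.28 for *Slc17a6* with *Slc12a5* and -0.31 for *Slc12a2* with *Slc12a5*.

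Scaling by total counts gave 0.036 for *Slc17a7* and 0.029 for *Slc12a5* with both sexes combined, 0.018 for *Slc17a6*, 0.0024 for *Slc17a7* and 0.057 for *Slc12a2* in males, and 0.056 for *Slc17a6* in the interaction. It moved the median of all genes in males from -0.06 to 0.06, and of the genes called with both sexes combined 180 were higher and 68 lower, against 113 and 108 under TMM. DESeq2's size factors and its Wald test gave -0.0071 for *Gad2* in the interaction. Female against male, 2 of the 8 were called under total scaling, under DESeq2's size factors, under its Wald test, with at least 10 counts in every library and with no covariate, where 4.48%, 4.18%, 5.86%, 3.69% and 5.36% of all genes were called. With no filter on low counts 3 were called, with 6.19% of all genes, and the interaction called 1, with 4.44%.

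Deviations of same-numbered mice from their group means correlated at -0.36 to 0.18 over 6 pairs, and 0 saline mice were closest to the morphine mouse of their number. These deviations still held the GC trend, and same-numbered mice were of opposite sex. They therefore cannot show whether replicate numbers paired the mice. With the replicate block *Slc17a7* was at 0.031 and *Slc12a5* at 0.013 with both sexes combined. Between the sexes 0 of the 8 were called with the block, against 2.39% of all genes. The block could not be fitted in the interaction.

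Without saline males 1 and 2, the values with both sexes combined were 0.30 for *Slc17a7*, 0.39 for *Slc32a1*, -0.038 for *Gad1*, -0.10 for *Gad2* and 0.26 for *Slc12a5*, with 1 called. In males they were 0.78 for *Slc17a7*, -0.12 for *Slc17a8*, 0.77 for *Slc32a1*, -0.11 for *Gad1*, -0.39 for *Gad2* and 0.65 for *Slc12a5*, with 6 called. In the interaction they were 0.75 for *Slc17a7*, -0.30 for *Slc17a8*, 0.61 for *Slc32a1*, -0.056 for *Gad1*, -0.39 for *Gad2*, -0.27 for *Slc12a2* and 0.61 for *Slc12a5*, with 3 called. Female against male they were -0.080 for *Slc17a6*, 0.15 for *Slc32a1*, -0.032 for *Gad1* and -0.098 for *Gad2*, with 0 called. Pearson r was 0.50 for *Gad1* with *Gad2*, -0.18 for *Gad1* with *Slc32a1* and -0.30 for *Slc32a1* with *Slc6a5*.

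Leaving out each mouse in turn, the values with both sexes combined ran from -0.13 to 0.049 for *Slc17a6*, -0.16 to 0.10 for *Slc17a7*, 0.16 to 0.39 for *Slc17a8*, -0.33 to -0.014 for *Slc32a1*, -0.0014 to 0.085 for *Gad1*, -0.029 to 0.14 for *Gad2* and -0.15 to 0.067 for *Slc12a5*. In females they ran from -0.080 to 0.016 for *Slc17a6*, -0.11 to 0.35 for *Slc17a7*, -0.00046 to 0.38 for *Slc17a8*, 0.074 to 0.35 for *Slc32a1*, -0.14 to 0.052 for *Gad1* and -0.019 to 0.068 for *Gad2*, with 0 to 2 called. In males they ran from -0.27 to 0.20 for *Slc17a6*, -0.39 to 0.072 for *Slc17a7*, 0.056 to 0.65 for *Slc17a8*, -0.92 to -0.30 for *Slc32a1*, -0.14 to 0.31 for *Gad2*, -0.18 to 0.16 for *Slc12a2* and -0.38 to 0.040 for *Slc12a5*, with 0 to 5 called. In the interaction they ran from -0.21 to 0.20 for *Slc17a6*, -0.49 to 0.026 for *Slc17a7*, -0.14 to 0.40 for *Slc17a8*, -1.15 to -0.48 for *Slc32a1*, -0.14 to 0.25 for *Gad2* and -0.067 to 0.23 for *Slc12a2*, with 0 to 2 called. Female against male they ran from -0.011 to 0.16 for *Slc17a6*, -0.0022 to 0.084 for *Gad1* and -0.027 to 0.13 for *Gad2*, with 0 to 3 called. In the same fits the number of all genes called ran from 208 to 1482 in females and 253 to 5341 in males. It ran from 290 to 4695 in the interaction and 330 to 3947 between the sexes.

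Of all genes tested, 221, 328, 543, 559 and 733 were called with both sexes combined, in females, in males, in the interaction and between the sexes, and with no filter on low counts these were 754, 1094, 985, 1665 and 2321. Offsets called 1235 in males and 1150 in the interaction, the contrast from a fit of all 12 mice called 218 in females, and the replicate block called 445 between the sexes. *Slc17a8* rested on the fewest counts of the 8, 187 to 349 per library.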
